A study of Mus musculus with 15 samples.

Results

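The genes described here are 10 that are commonly used to recognise monocytes and macrophages: Cd68, Lgals3, Csf1r, Adgre1, Itgam, Ccr2, Cx3cr1, Fcgr1, Ly6c2 and Cd14. They were taken by gene name from the deposited table of 54532 genes, and each name matched 1 row. The tissue was left ventricle of C57BL/6JRj mice, all female and aged 12 to 18 weeks, taken 8 days after surgery, with 5 libraries in each of 3 groups. In the GSK group the mice received GSK-343 at 20 mg/kg into the abdomen every day, first at 6 h after surgery and last on day 7, and the text treats these hearts as infarcted, which the treatment protocol says and the names of the samples do not. GSK-343 blocks EZH2, the enzyme that writes the repressive H3K27 methyl mark. Mice of the MI group had a coronary artery tied off for good and received the vehicle, 20% Captisol, alone. Sham mice were the operated controls and received the same vehicle, and 2 of the 5 Sham libraries (replicates 1 and 2) were each made from mixed RNA of 2 animals. The label S5 occurs both in the name of the mixed Sham replicate 2 and in that of MI replicate 3, and the labels do not say whether it stands for the same animal. The labels name no engineered allele in any group, the inhibitor was given to the whole animal, and the RNA is that of unsorted tissue.

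Monocytes are made in bone marrow, travel in blood and enter injured tissue, where many of them become macrophages. A resting mouse heart already holds resident macrophages, and an infarct draws in a wave of monocytes through the chemokine receptor CCR2, so the mix of cells in the ventricle changes over days as dead muscle is cleared and scar is laid down. The 10 genes stand for different steps of this course. Ly6c2 and Ccr2 are high in newly arrived inflammatory monocytes. Cx3cr1, the fractalkine receptor, is high in patrolling monocytes and in some tissue macrophages. Csf1r, Adgre1 (the F4/80 antigen), Fcgr1 (CD64) and Cd68 mark macrophages more broadly. None is strictly private to these cells: Itgam, Lgals3 and Cd14 are also made by neutrophils, and Lgals3 by activated fibroblasts.

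Values are FPKM, fragments per kilobase of gene length scaled to a total set for each library, so levels can be set side by side between genes. Fragments assigned to genes numbered 21.5 M to 26.8 M per library, and a single one on 1 kb of gene is worth 0.0357 to 0.0478 FPKM. The scaling total that the values imply, 20.9 M to 28.0 M, is not this count of fragments. It lay below the count in all Sham libraries, GSK replicates 3 and 4 and MI replicate 4, and above it in the others. In MI replicate 2 it was 28.0 M beside 23.8 M fragments, and in Sham replicate 2 it was 24.9 M beside 26.8 M. The reason was not tested. Mitochondrial transcripts took 31.8% to 48.7% of the FPKM in GSK libraries, 23.2% to 40.6% in MI libraries and 41.2% to 42.2% in Sham libraries. GSK replicates 3 and 4 and MI replicate 4 stand apart from their groups by this share, and without them the ranges were 31.8% to 32.7% in GSK and 23.2% to 27.6% in MI. Groups were compared with limma on log2(FPKM + 1) for the 12585 genes that reached 1 FPKM in 5 or more libraries, and a gene is called at an adjusted p under 0.05. Of the 10 identity genes 9 passed this filter, and Ly6c2 did not. In RNA from whole ventricle, a change in the number of cells of a type and a change in RNA per cell cannot be told apart.

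All 10 genes were detected in all 15 libraries. Summed over the 10 genes, the level was 113, 57.8, 65.8, 56.2 and 83.6 FPKM in GSK replicates 1 to 5, 77.1, 176, 120.4, 109 and 84.3 FPKM in MI replicates 1 to 5, and 29.7, 30.9, 33.7, 32.1 and 30.01 FPKM in Sham replicates 1 to 5. The Sham libraries lay within a narrow band, every infarcted library of either group lay above it, and GSK and MI overlapped. Within the groups the same libraries tended to be high for most of the genes. MI replicate 2 was the highest MI library for 9 of the 10 genes, and GSK replicate 1 was the highest GSK library for 8 of the 10. MI replicates 1 and 5 were the lowest MI libraries for 4 and 5 genes, and GSK replicate 2 was in the lower 2 GSK libraries for all 10.

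**Figure D1:**
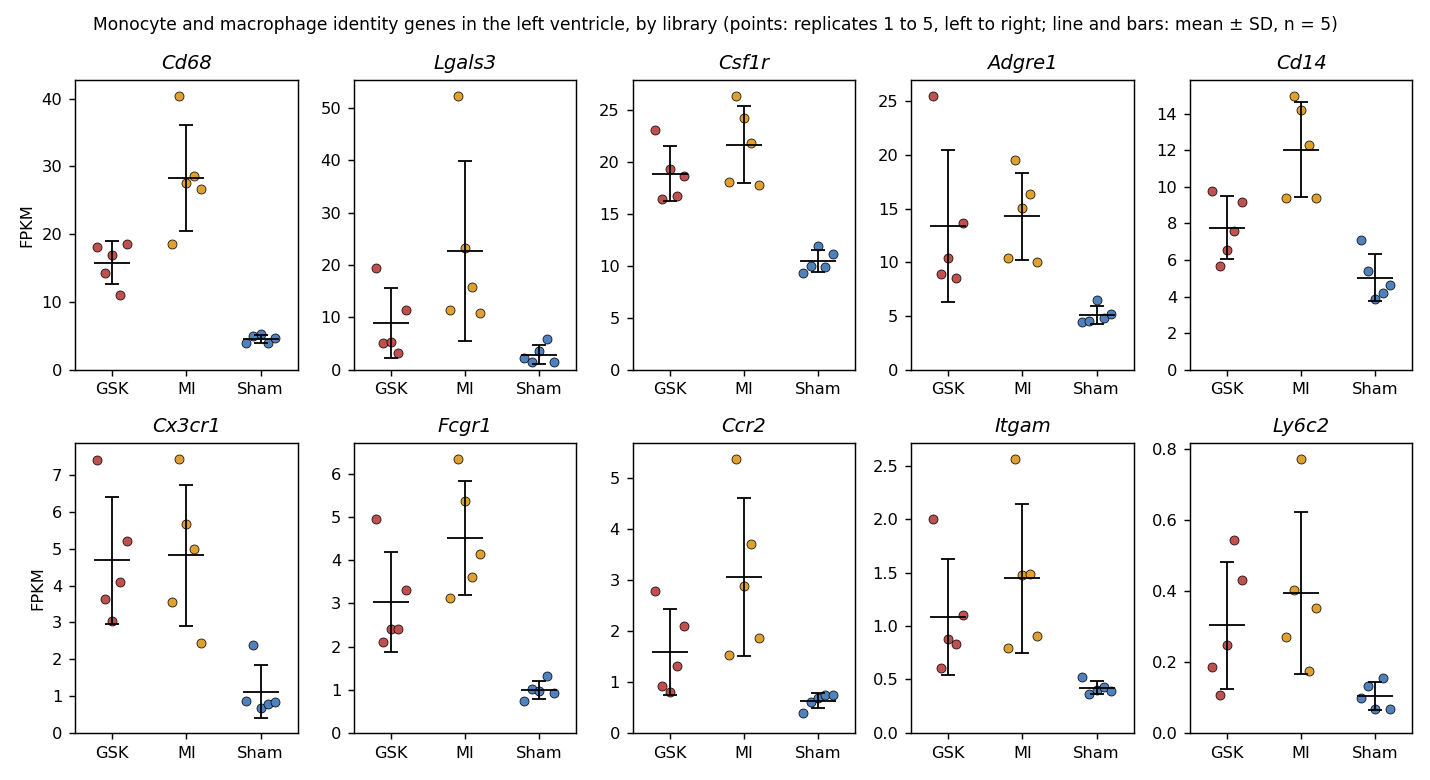
FPKM of each of the 10 genes (vertical axis, from 0, with its own scale in each panel) in the GSK, MI and Sham libraries. Points are replicates 1 to 5 from left to right within a group, and the line and bars are the mean ± SD (n = 5). In all 10 panels the 5 MI points lie above the 5 Sham points, and in all 10 panels the GSK and MI points overlap.

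Cd68 and Lgals3 had the highest mean levels of the 10 genes in MI. Cd68, a heavily glycosylated protein of the late endosome and lysosome (chr11:69664213-69666153 on mm10, minus strand), stood at 18.1, 14.3, 17.0, 10.96 and 18.5 FPKM in GSK replicates 1 to 5, at 18.5, 40.4, 27.6, 28.6 and 26.7 FPKM in MI replicates 1 to 5, and at 3.98, 5.02, 5.23, 3.98 and 4.65 FPKM in Sham replicates 1 to 5. Every GSK and MI library was above every Sham library, and GSK met MI only at MI replicate 1, the lowest of its group. Lgals3, galectin-3, a sugar-binding protein that macrophages secrete (chr14:47367751-47386160, plus strand), stood at 19.4, 5.06, 5.26, 3.13 and 11.4 FPKM in GSK, at 11.4, 52.2, 23.2, 15.7 and 10.7 FPKM in MI, and at 2.26, 1.49, 3.46, 5.76 and 1.40 FPKM in Sham. It was the most uneven of the genes in both infarcted groups, with a coefficient of variation of 75.3% in GSK and 76.2% in MI, and GSK replicates 2 to 4 lay within the Sham range.

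Csf1r, the receptor for CSF1 and IL-34 on which macrophages depend for survival (chromosome 18), was the steadiest gene. Its levels were 23.0, 16.4, 19.3, 16.7 and 18.7 FPKM in GSK, 18.1, 26.3, 24.2, 21.8 and 17.8 FPKM in MI, and 9.26, 9.95, 11.8, 9.91 and 11.1 FPKM in Sham. Its coefficient of variation was 14.1% in GSK, 17.2% in MI and 10.1% in Sham, and the infarcted libraries of both groups lay wholly above Sham. Adgre1, an adhesion-type receptor of mature mouse macrophages (chr17:57358691-57483527, plus strand), stood at 25.5, 8.94, 10.4, 8.51 and 13.7 FPKM in GSK, at 10.4, 19.5, 15.1, 16.3 and 9.98 FPKM in MI, and at 4.47, 4.56, 6.51, 4.83 and 5.22 FPKM in Sham. GSK replicate 1 was above every MI library, while the other GSK libraries lay between 8.51 and 13.7 FPKM. Fcgr1, the high-affinity receptor for IgG (chr3:96282909-96293969, minus strand), stood at 4.95, 2.11, 2.40, 2.41 and 3.30 FPKM in GSK, at 3.14, 6.33, 5.37, 3.60 and 4.15 FPKM in MI, and at 0.748, 1.01, 0.970, 1.33 and 0.932 FPKM in Sham. Both infarcted groups cleared Sham, and only GSK replicates 1 and 5 reached into the MI range.

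Cd14 and Itgam are the pattern-recognition and adhesion genes of the set. Cd14, the co-receptor that hands bacterial lipopolysaccharide to TLR4 (chromosome 18), stood at 9.77, 5.68, 6.53, 7.61 and 9.20 FPKM in GSK, at 9.40, 14.97, 14.2, 12.3 and 9.37 FPKM in MI, and at 7.08, 5.42, 3.89, 4.17 and 4.63 FPKM in Sham. MI lay wholly above Sham, GSK sat between them and touched both, and Cd14 had the smallest GSK to Sham ratio of means of the 10 genes, at 1.54. Itgam, the CD11b chain of complement receptor 3 (chr7:128062640-128118491, plus strand), stood at 2.004, 0.610, 0.877, 0.834 and 1.11 FPKM in GSK, at 0.793, 2.56, 1.48, 1.48 and 0.911 FPKM in MI, and at 0.520, 0.368, 0.400, 0.432 and 0.388 FPKM in Sham. Both infarcted groups lay above Sham without overlap, although the lowest GSK and MI libraries came close to the highest Sham library. The annotation places Gm49368 over Itgam on the same strand and with 3450 of Itgam's 5024 exon bases in common. Gm49368 reached at most 0.0375 FPKM, and since it is not given how shared fragments were assigned, the level of Itgam relative to the other genes is uncertain.

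Cx3cr1 and Ccr2 are the chemokine receptors of the set. Cx3cr1, the receptor for fractalkine (chr9:119901616-120069879, minus strand), stood at 7.43, 3.65, 3.04, 4.10 and 5.21 FPKM in GSK, at 3.56, 7.43, 5.67, 5.01 and 2.44 FPKM in MI, and at 0.870, 2.39, 0.689, 0.795 and 0.834 FPKM in Sham. The GSK and MI ranges overlapped almost entirely, both lay above Sham, and Sham replicate 2, a library of mixed RNA, stood apart from the other Sham libraries at 2.39 FPKM. Ccr2, the receptor for CCL2 that brings monocytes out of bone marrow and into tissue (chr9:124101950-124113557, plus strand), stood at 2.79, 0.925, 0.793, 1.31 and 2.09 FPKM in GSK, at 1.52, 5.36, 2.87, 3.70 and 1.85 FPKM in MI, and at 0.400, 0.601, 0.675, 0.746 and 0.741 FPKM in Sham. GSK and MI lay above Sham, with GSK replicate 3 only just above the highest Sham library.

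Ly6c2, which encodes the Ly6C antigen of inflammatory monocytes (chr15:75108158-75111970, minus strand), was near the limit of detection. It stood at 0.186, 0.107, 0.249, 0.544 and 0.431 FPKM in GSK, at 0.272, 0.404, 0.772, 0.174 and 0.354 FPKM in MI, and at 0.0987, 0.132, 0.0666, 0.155 and 0.0677 FPKM in Sham. These levels rest on 7 to 32 fragments per library in GSK, 10 to 58 in MI and 4 to 9 in Sham. Every MI library was above every Sham library (exact two-sided permutation test over all assignments of 5 against 5 libraries, p = 0.00794, the smallest this design allows), with 0.395 ± 0.228 FPKM in MI and 0.104 ± 0.0391 FPKM in Sham (SD, n = 5 each). GSK overlapped both, with exact permutation p = 0.516 against MI and 0.0238 against Sham. These 3 values are not adjusted for multiple tests. Its near copy Ly6c1, a gene of endothelial cells as well, was far more abundant at 73.8 ± 6.65 FPKM in GSK, 74.5 ± 17.0 FPKM in MI and 65.0 ± 9.20 FPKM in Sham (SD, n = 5 each). Of the 50-base windows of Ly6c2 transcripts, 13.9% also occur in Ly6c1 transcripts, so a part of the few Ly6c2 fragments could stem from Ly6c1, which was not tested. Ly6c1 was not called in any comparison, with log2 differences of 0.17 ± 0.15 for MI against Sham, 0.01 ± 0.15 for GSK against MI and 0.19 ± 0.15 for GSK against Sham (limma, ± SE, adjusted p from 0.368 to 0.970).

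The comparison of MI with Sham asks what infarction did to these genes at day 8. All 9 genes tested rose, where 21.9% of all tested genes were called higher. The largest rises were those of Lgals3 and Cd68, with means of 22.7 ± 17.3 and 28.3 ± 7.83 FPKM in MI and 2.87 ± 1.81 and 4.57 ± 0.580 FPKM in Sham (SD, n = 5 each). As log2 differences from limma, Lgals3 rose by 2.48 ± 0.47 (SE, adjusted p = 0.000732) and Cd68 by 2.36 ± 0.17 (SE, adjusted p = 2.45e-06). No tested gene had a smaller adjusted p than Cd68, and 0.286% of genes had a larger rise. The smallest rises were those of Itgam, 0.74 ± 0.18 (adjusted p = 0.00400), and Csf1r, 0.98 ± 0.12 (adjusted p = 3.96e-05).

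Between these lay the receptors. Cx3cr1 rose by 1.45 ± 0.25 on the log2 scale and Fcgr1 by 1.44 ± 0.18. Adgre1 rose by 1.29 ± 0.25, Ccr2 by 1.24 ± 0.24 and Cd14 by 1.11 ± 0.17, and the adjusted p of these 5 genes ran from 4.27e-05 to 0.000885 (limma). The median over the 9 genes was 1.29, against -0.02 over all tested genes. Because the pseudocount flattens low values, ratios of mean FPKM order the genes differently: 7.88 for Lgals3, 6.20 for Cd68, 4.84 for Ccr2, 4.53 for Fcgr1, 4.32 for Cx3cr1, 3.43 for Itgam, 2.79 for Adgre1, 2.39 for Cd14 and 2.08 for Csf1r. All 5 MI libraries exceeded all 5 Sham libraries for each of the 9 genes, which holds for 15.7% of all tested genes. All 9 calls held in each of 20 alternative settings, including those that left out any 1 MI or Sham library, the 2 mixed Sham libraries or the 3 libraries of high mitochondrial share. With the mitochondrial genes left out and library totals equalised, the split of all called genes moved to 3314 higher and 1897 lower, against 2757 higher and 2758 lower as scaled by the authors.

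**Figure D2:**
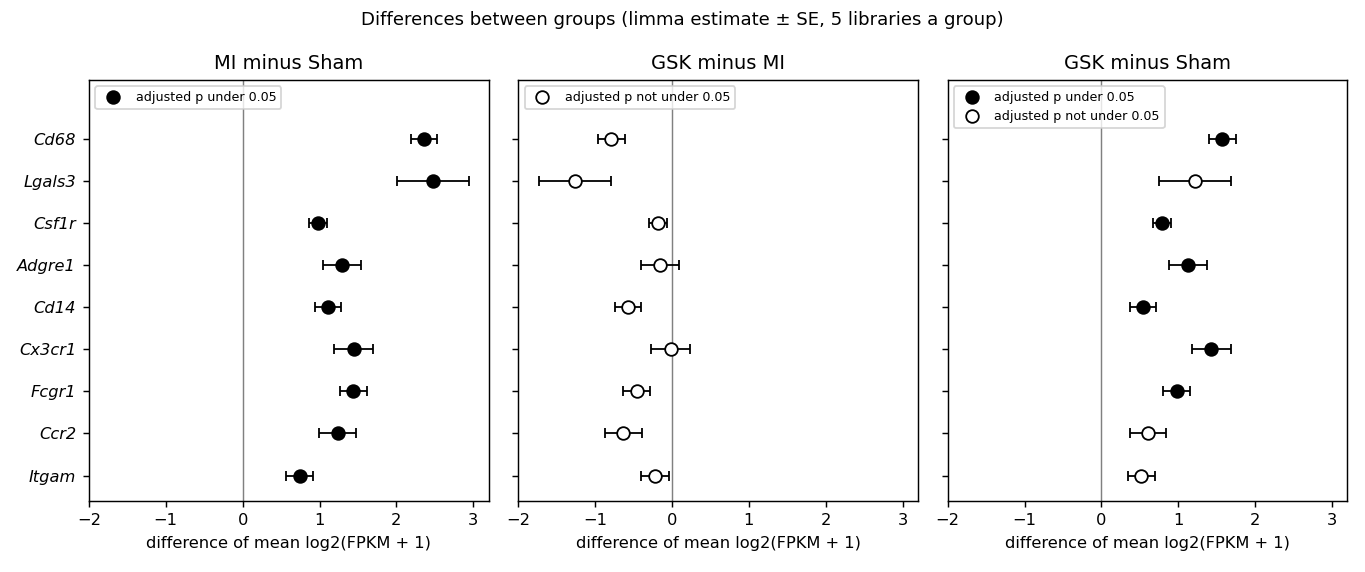
Difference of mean log2(FPKM + 1) (horizontal axis) for the 9 tested genes, with MI minus Sham on the left, GSK minus MI in the middle and GSK minus Sham on the right. Points are limma estimates with SE bars, filled where the adjusted p is under 0.05. All 9 points are filled and above 0 for MI minus Sham, none is filled for GSK minus MI, and 6 are filled for GSK minus Sham.

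The transcription factor PU.1, encoded by Spi1, is needed to make monocytes and macrophages and binds a purine-rich element with the core GAGGAA. Spi1, singled out after its values were seen, stood at 6.17, 3.78, 3.74, 2.68 and 5.61 FPKM in GSK, at 5.49, 9.03, 8.17, 5.89 and 5.91 FPKM in MI, and at 2.17, 2.52, 2.76, 2.33 and 2.48 FPKM in Sham. It rose by 1.17 ± 0.17 on the log2 scale in MI against Sham (limma, SE, adjusted p = 9.92e-05). The RefSeq promoter table (GRCm38.p6, 250 bases before to 50 bases after each start) holds 7 of the 10 genes. Searched on both strands, GAGGAA occurs in 4 of these 7 windows, in Cd68, Itgam, Fcgr1 and Ly6c2, and in 28.3% of all 32851 promoters in the table. It does not occur in the windows of Lgals3, Ccr2 and Cx3cr1, and the windows of these 3 genes lie wholly (Lgals3, Cx3cr1) or mostly (Ccr2) inside the deposited span of the gene. The windows of the 3 tested genes that hold it follow, to show where in the window the core lies, each in its own 5′ to 3′ direction with the core in capitals (TTCCTC is the same core on the other strand).
Cd68 (chr11:69666121-69666420, minus strand): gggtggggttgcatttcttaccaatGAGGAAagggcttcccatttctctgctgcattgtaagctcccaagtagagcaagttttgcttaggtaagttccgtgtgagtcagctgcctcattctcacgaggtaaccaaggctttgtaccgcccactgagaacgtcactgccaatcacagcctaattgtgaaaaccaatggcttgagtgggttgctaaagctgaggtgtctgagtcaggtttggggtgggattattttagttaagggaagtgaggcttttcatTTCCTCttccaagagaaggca
Itgam (chr7:128062390-128062689, plus strand): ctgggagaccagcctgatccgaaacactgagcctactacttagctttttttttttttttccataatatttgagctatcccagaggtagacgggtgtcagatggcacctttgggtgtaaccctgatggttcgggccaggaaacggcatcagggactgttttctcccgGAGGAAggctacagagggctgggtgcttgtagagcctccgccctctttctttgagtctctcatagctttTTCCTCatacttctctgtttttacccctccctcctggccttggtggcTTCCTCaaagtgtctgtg
Fcgr1 (chr3:96293920-96294219, minus strand): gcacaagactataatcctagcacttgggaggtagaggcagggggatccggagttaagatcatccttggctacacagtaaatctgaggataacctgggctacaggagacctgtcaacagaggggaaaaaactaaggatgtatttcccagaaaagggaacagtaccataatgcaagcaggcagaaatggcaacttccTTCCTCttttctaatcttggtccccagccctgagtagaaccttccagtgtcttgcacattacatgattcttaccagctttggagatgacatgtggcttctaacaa
The Cd68 window holds the core at 2 positions, that of Itgam at 3 and that of Fcgr1 at 1. The AP-1 element TGANTCA, also searched on both strands, occurs at 2 positions of the Cd68 window and in no other of the 7, against 7.81% of all promoters. Cd68 was also the only one with the C/EBP element TTGCNNAA (10.8% of all promoters), and none of the 7 holds TATAAA (13.6%). None of these elements overlaps the PU.1 core in the Cd68 window. Lgals3, Ccr2 and Cx3cr1, whose windows do not hold the core, rose in MI as well. A match describes the letters of the window and says nothing of binding.

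The comparison of GSK with MI asks whether the inhibitor moved these genes in infarcted hearts. None of the 9 tested genes was called, and neither was any other gene, so the share called is 0% in the higher and 0% in the lower direction. The smallest adjusted p of all genes was 0.0536 by limma, 2638 genes had an unadjusted p under 0.05, and limma's voom on recovered fragments called 2 genes, neither of them among the 9. All 9 log2 differences were below 0, as are those of 49.6% of all tested genes. Of the 9, 5 had an unadjusted p under 0.05 by limma on the lower side, as do 10.1% of all tested genes. These 5 were Cd68, Lgals3, Ccr2, Fcgr1 and Cd14. The median over the 9 genes was -0.46, against 0.00 over all tested genes. The 9 genes are not independent readings, since the same libraries tended to be high or low for most of them. MI replicate 2 was the highest MI library for 9 of the 10 genes, and GSK replicate 2 was in the lower 2 for all 10. Shared signs can therefore rest on a few libraries.

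Cd68 averaged 15.8 ± 3.15 FPKM in GSK and 28.3 ± 7.83 FPKM in MI, a log2 difference of -0.79 ± 0.17 (limma, SE, adjusted p = 0.0868). It passed the threshold when MI replicate 1 (-0.93, adjusted p = 0.0127) or GSK replicate 5 (-0.85, adjusted p = 0.0436) was left out, and in none of the other 18 settings. Leaving out the same libraries raised the number of genes called across the table to 392 and 288, against 0 with all libraries. Over all settings the Cd68 difference lay between -0.93 and -0.65. Its adjusted p was highest, 0.381, without GSK replicates 3 and 4 and MI replicate 4. That setting also gave the highest adjusted p for Cd14 (0.504), Fcgr1 (0.568), Lgals3 (0.611) and Ccr2 (0.678). Cd14 averaged 7.76 ± 1.73 FPKM in GSK and 12.1 ± 2.62 FPKM in MI, a difference of -0.57 ± 0.17 (adjusted p = 0.116). Lgals3 had the largest difference, -1.26 ± 0.47 (adjusted p = 0.157), with means of 8.85 ± 6.66 FPKM in GSK and 22.7 ± 17.3 FPKM in MI, and its wide spread within both groups is reflected in the SE.

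Ccr2 averaged 1.58 ± 0.843 FPKM in GSK and 3.06 ± 1.55 FPKM in MI, a log2 difference of -0.63 ± 0.24 (adjusted p = 0.164). Fcgr1 averaged 3.03 ± 1.16 FPKM in GSK and 4.52 ± 1.31 FPKM in MI, a difference of -0.46 ± 0.18 (adjusted p = 0.169). The other 4 genes differed by less than 2 SE. Itgam differed by -0.22 ± 0.18, Csf1r by -0.19 ± 0.12, Adgre1 by -0.16 ± 0.25 and Cx3cr1 by -0.02 ± 0.25 (limma, adjusted p from 0.373 to 0.978). For Cx3cr1 the means were 4.69 ± 1.73 FPKM in GSK and 4.82 ± 1.92 FPKM in MI, and its difference changed sign in several settings, for example without MI replicate 2 (0.13) or without GSK replicates 3 and 4 and MI replicate 4 (0.20). Adgre1 likewise stood at 0.14 without those 3 libraries, and at -0.41 ± 0.18 (adjusted p = 0.186) without GSK replicate 1. For none of the 10 genes were all 5 GSK libraries below all 5 MI libraries, which holds for 0.858% of all tested genes.

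The comparison of GSK with Sham sets treated infarcted hearts against uninfarcted controls. Of the 9 tested genes 6 rose, Cd68, Csf1r, Adgre1, Cx3cr1, Fcgr1 and Cd14, where 10.8% of all tested genes were called higher. Cd68 rose by 1.57 ± 0.17 on the log2 scale (limma, SE, adjusted p = 9.23e-05), Cx3cr1 by 1.43 ± 0.25 (adjusted p = 0.00231), Adgre1 by 1.13 ± 0.25 (adjusted p = 0.00757), Fcgr1 by 0.98 ± 0.18 (adjusted p = 0.00269) and Csf1r by 0.79 ± 0.12 (adjusted p = 0.000803). These 5 calls held in all 21 alternative settings. Cd14 rose by 0.54 ± 0.17 (adjusted p = 0.0403), and that call was lost in 13 of the 21 settings, among them those without GSK replicate 1, 4 or 5 or Sham replicate 2, 3, 4 or 5, with adjusted p up to 0.102. Lgals3 (1.22 ± 0.47, adjusted p = 0.0794), Ccr2 (0.61 ± 0.24, adjusted p = 0.0868) and Itgam (0.52 ± 0.18, adjusted p = 0.0553) did not pass.

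All 5 GSK libraries were above all 5 Sham libraries for Cd68, Csf1r, Adgre1, Itgam, Ccr2, Cx3cr1 and Fcgr1, 7 of the 9, which holds for 10.6% of all tested genes. The median over the 9 genes was 0.98, against -0.02 over all tested genes. With the mitochondrial genes left out and totals equalised, the split of all calls moved to 1960 higher and 425 lower, against 1354 higher and 954 lower as scaled by the authors, and 6 of the 9 genes were called there too. The 3 comparisons share libraries, so each gene's differences are given side by side and not correlated. Cx3cr1 had 1.43 for GSK against Sham beside 1.45 for MI against Sham. Cd68 had 1.57 beside 2.36, Lgals3 1.22 beside 2.48, and Ccr2 0.61 beside 1.24.

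**Figure D3:**
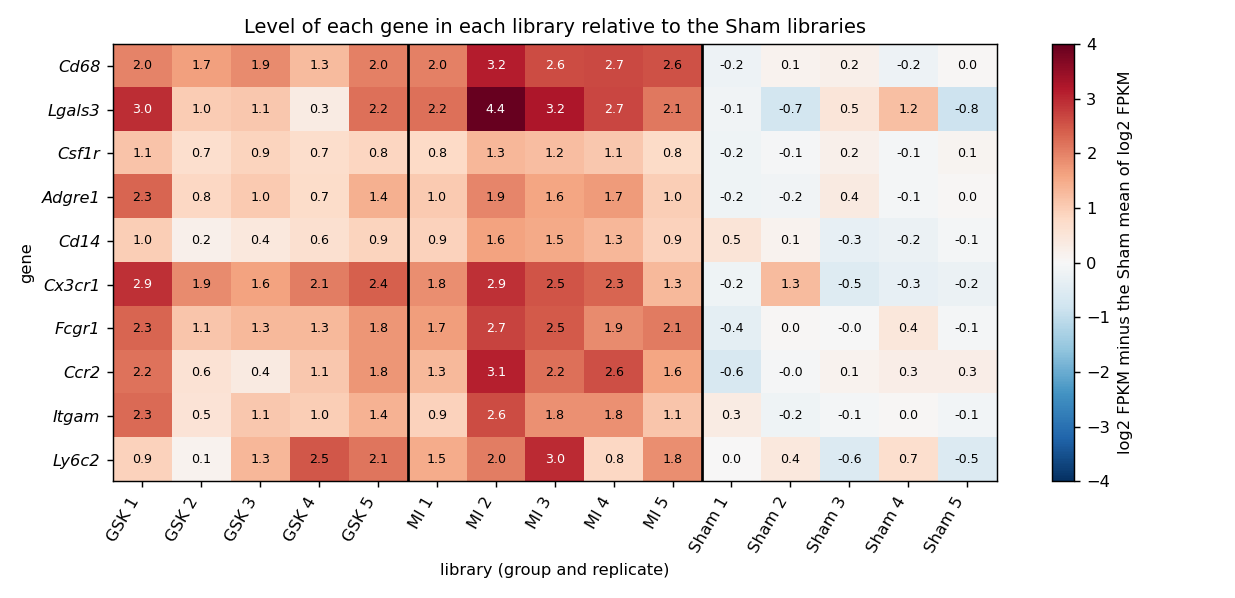
Level of each gene (rows) in each library (columns, GSK 1 to 5, then MI 1 to 5, then Sham 1 to 5), as log2 FPKM minus the mean log2 FPKM of the Sham libraries, without a pseudocount. Red is above the Sham mean and blue below it. GSK replicate 1 and MI replicate 2 are the reddest columns of their groups, and Sham replicate 2 stands out for Cx3cr1 alone.

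The make-up of the set also differed between groups, a description that does not depend on how a library was scaled. Csf1r made up 20.4%, 28.4%, 29.4%, 29.8% and 22.3% of the summed FPKM of the 10 genes in GSK, 23.5%, 14.996%, 20.1%, 20.1% and 21.1% in MI, and 31.2%, 32.2%, 35.1%, 30.9% and 37.2% in Sham. Its share was higher in every Sham library than in any infarcted one. Cd68 made up 16.0%, 24.7%, 25.8%, 19.5% and 22.2% in GSK, 24.0%, 23.0%, 22.9%, 26.3% and 31.6% in MI, and 13.4%, 16.2%, 15.5%, 12.4% and 15.5% in Sham. MI was wholly above Sham, while GSK replicate 1 was as low as the Sham libraries. Cx3cr1 made up 6.56%, 6.32%, 4.62%, 7.31% and 6.23% in GSK, 4.62%, 4.23%, 4.71%, 4.61% and 2.90% in MI, and 2.93%, 7.73%, 2.04%, 2.48% and 2.78% in Sham. GSK lay above MI except that GSK replicate 3 was level with the MI libraries.

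Csf1r was also used as the yardstick for ratios within a library, chosen for its low spread after the values were seen. In GENCODE vM21, Csf1r has 873 exon bases in common with Hmgxb3 on the opposite strand, which stood at 4.41 to 6.06 FPKM over the 15 libraries. That release gives Csf1r other coordinates and 5774 exon bases, against a deposited length of 4885, so the overlap in the deposited gene model may differ. With the strand setting not given, a part of the Csf1r level could stem from Hmgxb3, which was not tested. The ratio of Cd68 to Csf1r averaged 0.836 ± 0.125 in GSK, 1.30 ± 0.222 in MI and 0.439 ± 0.0397 in Sham (SD, n = 5 each). The groups did not overlap, with GSK between 0.655 and 0.993, MI between 1.02 and 1.53 and Sham between 0.401 and 0.505. For the ratio of Cd14 to Csf1r, GSK averaged 0.411 ± 0.0675 and lay wholly below MI at 0.553 ± 0.0292, while Sham at 0.495 ± 0.169 overlapped both. Among the 8 other tested genes of the set, 5 had ratios to Csf1r that were higher in all MI than in all Sham libraries (Cd68, Lgals3, Adgre1, Ccr2 and Fcgr1), which holds for 1.86% of all tested genes. The 2 that were lower in all GSK than in all MI libraries, Cd68 and Cd14, compare with 0.175% of all tested genes. Csf1r itself had ratios of mean FPKM of 2.08 for MI to Sham and 0.870 for GSK to MI. A gene of unchanged level would thus have a lower ratio to it in MI than in Sham and a higher one in GSK than in MI. Both shares therefore depend on the yardstick. A ratio shows that a pair of genes changed unequally and not which of them changed.

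The ratio of Ccr2 to Cx3cr1, the receptors of arriving monocytes and of patrolling or resident cells, averaged 0.322 ± 0.0660 in GSK, 0.630 ± 0.152 in MI and 0.704 ± 0.328 in Sham. All GSK libraries lay below all MI libraries, with a highest GSK ratio of 0.400 and a lowest MI ratio of 0.427. Sham ran from 0.251 to 0.980, and only Sham replicate 2, the library of high Cx3cr1, was as low as GSK. The other Sham libraries lay above every GSK library. Adgre1 relative to Cd68 averaged 0.832 ± 0.329 in GSK, 0.509 ± 0.0828 in MI and 1.12 ± 0.132 in Sham, with GSK wholly above MI and MI wholly below Sham. The ratio of Ccr2 to Itgam was 1.45 ± 0.357 in GSK and 2.09 ± 0.233 in MI, again without overlap. Of 15 ratios formed between the genes, these 3 and those of Cd68 and Cd14 to Csf1r separated GSK from MI without overlap. Among all tested genes, 0.644% had a ratio to Cx3cr1 that was lower in all GSK than in all MI libraries, 0.103% had a lower ratio to Itgam and 26.0% had a higher ratio to Cd68, so a higher ratio to Cd68 was common among all genes. These ratios were chosen with the levels known and carry no test, and the shares of all genes depend on the gene used as denominator.

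**Figure D4:**
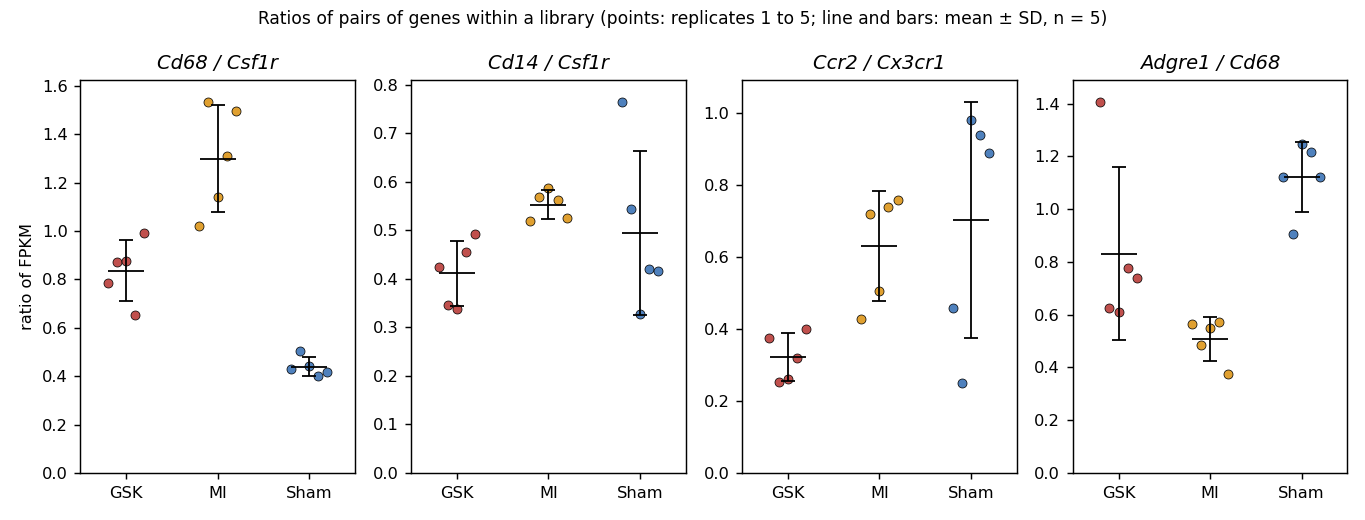
Ratio of the FPKM of a pair of genes within each library (vertical axis, from 0) for GSK, MI and Sham. Points are replicates 1 to 5, and the line and bars are the mean ± SD (n = 5). For Cd68 to Csf1r the groups are separate, with means of 0.836 in GSK, 1.30 in MI and 0.439 in Sham, and for Ccr2 to Cx3cr1 the GSK points lie below the MI points.

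Partners of these receptors and other genes of the same cells were read from lists chosen with earlier results of these data known. Of a list of colony-stimulating factors and their receptors, 5 of 5 tested genes rose in MI against Sham (median log2 difference 0.85) and 1, Csf1, rose in GSK against Sham. Csf1 and Il34 encode the ligands of the CSF1 receptor, Csf2ra and Csf2rb chains of the GM-CSF receptor, and Csf3r the G-CSF receptor. Csf1 averaged 15.4 ± 1.79 FPKM in GSK, 14.5 ± 1.03 FPKM in MI and 11.5 ± 0.994 FPKM in Sham, while Il34, the other ligand of the receptor, averaged 2.49 ± 0.744, 3.47 ± 0.615 and 1.86 ± 0.248 FPKM in that order of groups, and Csf2ra 8.96 ± 3.09, 13.4 ± 3.68 and 6.83 ± 0.878 FPKM. The ligands of CCR2 and CX3CR1 rose in 5 of 5 both for MI against Sham (median 1.97) and for GSK against Sham (median 1.03). Among them Ccl8 averaged 18.0 ± 7.56 FPKM in GSK, 33.3 ± 16.6 FPKM in MI and 3.50 ± 2.62 FPKM in Sham. Ccl2 averaged 5.13 ± 2.41 FPKM in GSK, 13.7 ± 7.52 FPKM in MI and 1.96 ± 0.321 FPKM in Sham, and Cx3cl1, fractalkine, 6.34 ± 1.07, 8.45 ± 2.40 and 3.81 ± 1.20 FPKM.

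Of the partners of CD14 in sensing lipopolysaccharide, 4 of 5 rose in MI against Sham (median 0.65; Tlr4, Myd88 and Tlr2 among them) and 2 in GSK against Sham, with Tlr2 at 0.91 ± 0.14 in the second. The partners of CD11b and of the Fc receptors rose in 5 of 5 in MI (median 1.40) and 4 of 5 in GSK against Sham. Fcer1g, the signalling chain that Fcgr1 needs, averaged 27.5 ± 10.7 FPKM in GSK, 37.4 ± 11.5 FPKM in MI and 10.7 ± 1.49 FPKM in Sham, and Itgb2, the CD18 chain that pairs with CD11b, 6.26 ± 2.04, 9.91 ± 2.88 and 2.75 ± 0.361 FPKM. Fcgr3 rose by 1.30 ± 0.19 in MI and 0.74 ± 0.19 in GSK against Sham. Of 9 myeloid transcription factors 6 rose in MI (median 0.57) and 1, Spi1, in GSK against Sham, a share close to the 10.8% of all tested genes, and the 3 most abundant, Cebpb, Klf4 and Nr4a1, were not called in either. Of 19 other macrophage genes tested, 14 rose in MI (median 1.18) and 10 in GSK against Sham (median 0.67). Lyz2, lysozyme, averaged 348 ± 115 FPKM in GSK, 423 ± 105 FPKM in MI and 161 ± 12.8 FPKM in Sham, and the complement genes C1qa and C1qb rose in MI by 1.18 ± 0.26 and 1.40 ± 0.22. The 5 not called in MI were Cd163, Lyve1, Folr2, Timd4 and Gpnmb, the first 4 of which are known from resident macrophages. Mrc1 and Mertk, also high in resident macrophages, rose by 0.83 ± 0.13 and 0.37 ± 0.13 in MI (limma, SE, adjusted p = 0.000262 and 0.0337), and these 7 genes were singled out after their values were seen. In GSK against MI no gene of any list was called by limma. Medians follow, with the tested genes at an unadjusted p under 0.05 on either side in brackets. They were -0.83 for the chemokine ligands (4 of 5), -0.56 for the integrin and Fc partners (3 of 5) and -0.55 for the colony-stimulating factors and receptors (4 of 5, Csf1 itself 0.08). For the other macrophage genes the median was -0.44 (6 of 19, of which Timd4 was higher in GSK). It was -0.35 for the transcription factors (3 of 9) and -0.13 for the CD14 partners (0 of 5). The medians of the lists for other cells were -0.82 for neutrophils (4 of 4), -0.77 for erythroid cells and platelets (3 of 5) and -0.45 for pan-leukocyte genes (5 of 8). They were -0.23 for the single B cell gene (0 of 1), -0.16 for fibroblasts (0 of 8) and 0.03 for dendritic cells (0 of 3). Endothelium stood at 0.08 (0 of 9), adipocytes at 0.11 (0 of 5), ventricular cardiomyocytes at 0.28 (3 of 9) and atrial genes at 1.46 (0 of 4). Over all tested genes the median was 0.00 (2638 of 12585). The part of blood or atrial tissue in the differences of the 10 genes was not tested.

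Several of the 10 genes are shared with other cells, so the lists of those cells are set beside them. The 8 pan-leukocyte genes, Laptm5, Coro1a and Cd53 the most abundant, all rose in MI against Sham (median 1.34), and 4 rose in GSK against Sham. Their sum was 40.7 to 72.8 FPKM in GSK, 58.2 to 104.8 FPKM in MI and 22.1 to 27.6 FPKM in Sham. Of the 11 neutrophil genes 4 could be tested, and 2, Csf3r (also listed among the receptors for colony-stimulating factors) and Lcn2, rose in MI (median of the 4, 0.98) and 1, Lcn2, in GSK against Sham. The neutrophil sum was 4.61 to 14.0 FPKM in GSK, 11.5 to 24.7 FPKM in MI and 5.98 to 7.65 FPKM in Sham, and the calprotectin genes S100a8 and S100a9, abundant in neutrophils and monocytes, averaged 0.978 ± 0.795 and 2.002 ± 1.66 FPKM in GSK, 2.53 ± 1.20 and 4.89 ± 2.94 FPKM in MI and 1.36 ± 0.460 and 2.15 ± 0.805 FPKM in Sham. Of the dendritic cell list 3 of 9 genes could be tested (Zbtb46, Clec9a and Clec10a), and none was called in any comparison by limma or reached an unadjusted p under 0.05. No gene of the T and NK cell list passed the filter, Trac being the most abundant at no more than 1.39 FPKM and Cd4 and Nkg7 next. Of the B cell list only Blk was tested, and it rose in both infarcted groups against Sham, while Cd79a and Cd79b reached at most 3.53 and 2.57 FPKM. The part of other leukocytes in the 10 genes' levels was not tested.

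Fibroblast genes were high in partly the same libraries. Of 8, 5 rose in MI against Sham (median 0.76) and 4 in GSK against Sham, and their sum was 453 to 1349 FPKM in GSK, highest in replicate 1, 626 to 1409 FPKM in MI, lowest in replicates 1 and 5, and 306 to 443 FPKM in Sham. The matrix genes Postn and Col1a1 rose in MI by 4.0 ± 0.46 and 2.89 ± 0.48, and Dcn did not pass (0.11 ± 0.18). Over all 12585 tested genes, 2758 were called lower in MI against Sham and 954 in GSK against Sham. Of 9 ventricular cardiomyocyte genes 6 fell in MI (median -0.72) and 2 in GSK against Sham. Their sum was 12427 to 18409.9 FPKM in GSK, 10278 to 20884 FPKM in MI and 15296 to 20107 FPKM in Sham, lowest in GSK replicate 1 and MI replicate 2, the libraries where the 10 genes were highest. Myh6 fell by 0.84 in MI and Myl2 by 0.72, and Actc1 did not pass. Of 9 endothelial genes 2, Pecam1 and Cdh5, rose in both infarcted groups against Sham (median of the 9, 0.15 for MI), a share close to the 21.9% of all tested genes called higher in MI. Of the tested atrial genes (Myl7, Myl4, Nppa and Sln) only Nppa was called, higher in MI (median of the 4, -1.99), again a share close to 21.9%. Of 5 adipocyte genes 1, Plin1, fell in MI (median of the 5, -0.86), a share close to that of all tested genes called lower. None of the 5 was called in GSK against Sham, where 1 had an unadjusted p under 0.05. Fabp4, Cfd and Adipoq were not called in either. Of 5 erythroid and platelet genes only Pf4 was called, higher in MI (median of the 5, 0.66), also a share close to 21.9%. Hba-a1 and Hbb-bs were not called. Pf4 averaged 22.7 FPKM in GSK, 27.5 FPKM in MI and 20.4 FPKM in Sham. Ppbp and Itga2b of the same list, which did not pass the filter, reached at most 1.77 and 0.701 FPKM. Which cells made the Pf4 RNA was not tested. No gene of any list was at 0 in all 15 libraries. The part of a changed mix of muscle, scar and leukocytes in the levels of the 10 genes was not tested.

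**Figure D5:**
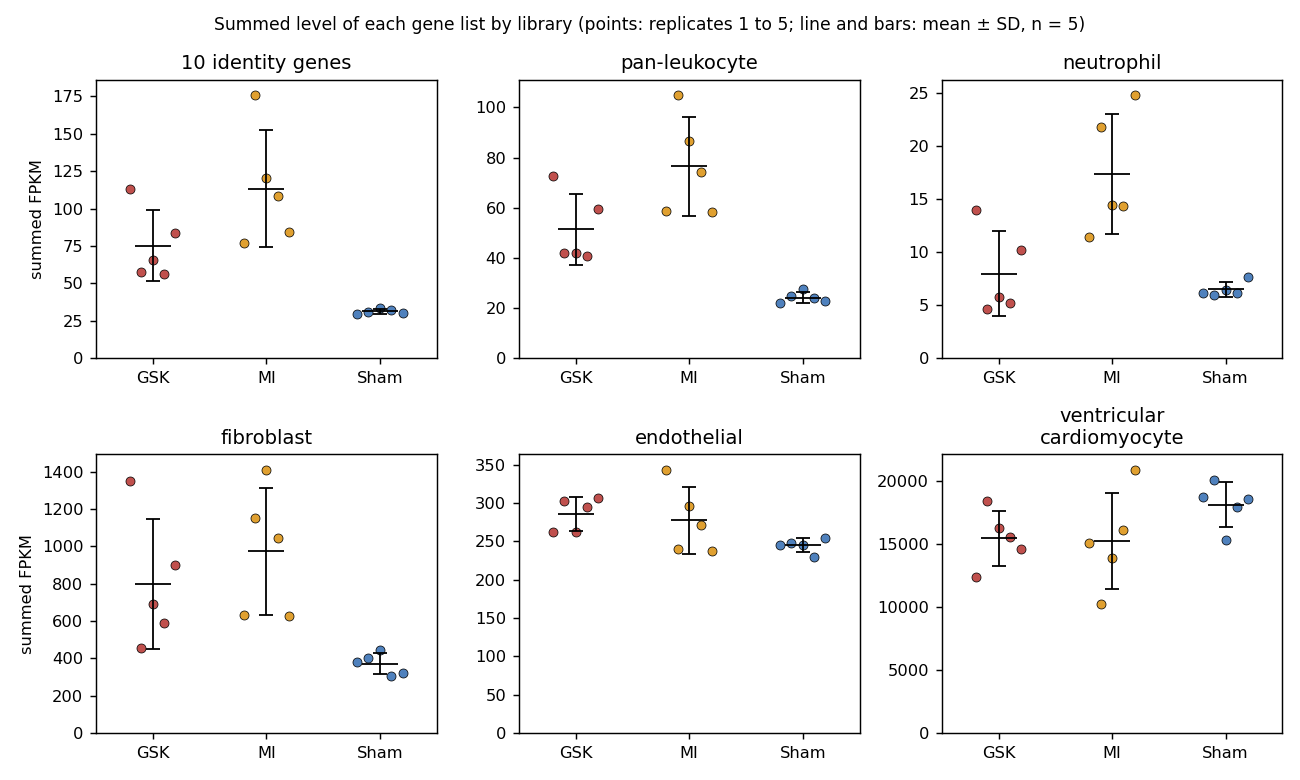
Summed FPKM per library (vertical axis, from 0) of the 10 identity genes and of 5 marker lists, in GSK, MI and Sham. Points are replicates 1 to 5, and the line and bars are the mean ± SD (n = 5). The 10 genes run from 56.2 to 113 FPKM in GSK, from 77.1 to 176 FPKM in MI and from 29.7 to 33.7 FPKM in Sham, and the pan-leukocyte and fibroblast sums are likewise higher in both infarcted groups.

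The genes of most similar pattern were found by the root mean square difference between a gene's z-scored profile over the 15 libraries and the mean profile of the tested identity genes. The nearest 5 among the other tested genes were Trem2 (0.145), Nckap1l (0.152), Fcer1g (0.159), Mpeg1 (0.163) and Lox (0.163). The identity genes themselves lay at 0.226 (Fcgr1) to 0.437 (Cx3cr1) from their own mean. They were not picked by this distance and the nearest 5 were, so the 2 sets of distances are not alike. Trem2, a lipid-sensing receptor of macrophages, stood at 3.89, 1.63, 1.64, 1.53 and 3.16 FPKM in GSK, at 2.69, 8.02, 6.44, 4.34 and 3.03 FPKM in MI, and at 0.374, 0.406, 0.378, 0.486 and 0.281 FPKM in Sham. Nckap1l, an actin regulator of blood cells, averaged 4.24 ± 1.04 FPKM in GSK, 5.67 ± 1.92 FPKM in MI and 1.62 ± 0.107 FPKM in Sham. Mpeg1, a pore-forming protein of phagocytes, averaged 14.1 ± 6.83, 25.8 ± 17.9 and 3.63 ± 0.654 FPKM in that order. Lox, an enzyme that crosslinks collagen and is best known from matrix-producing cells, averaged 25.2 ± 25.6, 59.3 ± 53.6 and 1.49 ± 0.421 FPKM. All 5 rose in MI against Sham and in GSK against Sham, and none was called in GSK against MI, where limma gave adjusted p from 0.117 to 0.313. Because the 5 were picked for their profile over these same libraries, their calls follow from the choice and are no separate evidence.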

How the data were processed

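Poly-A RNA of left ventricle in 15 libraries, 1000 ng with a RIN above 8, was read as 150 nt paired ends, per the labels' protocols. The authors deposited FPKM for 54532 genes with gene lengths and coordinates. The build mm10 and the tools HISAT2, Subread, featureCounts, R 3.5.1 and DESeq2 are named per the submitters' processing notes, with no role or order. Annotation release and strand setting: not given in the sources used here. FPKM times length gave whole fragments, within 0.01, for 100% of values.

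Groups were read from the sample names. The labels' protocols speak of independent mice, and beyond the mixed Sham libraries nothing more is said of replicates. limma 3.58.1 (R 4.3.3; lmFit, contrasts.fit, eBayes with trend) was fitted to log2(FPKM + 1) of all 15 libraries for the 12585 genes that reached 1 FPKM in 5 or more libraries, with Benjamini-Hochberg adjustment over all of them, two-sided. The pseudocount of 1 understates changes of low genes. Every adjusted p comes from this fit, or from its repeat under the alternative named beside it. In a simulation of MI against Sham over 12585 genes the fit recovered 93 of 100 genes changed by 1 and 100 of 100 changed by 2 on the log2 scale. The simulated noise was independent between genes, without shifts shared by the genes of a library, so this recovery need not hold for the real libraries. Ly6c2 was tested by an exact permutation test (SciPy).

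The 10 genes, the 17 lists and the ratios were chosen with earlier results of these data known. All 10 genes are named; of each list, up to 3 genes of highest mean FPKM, and the 5 genes of nearest profile. Gene overlaps came from GENCODE vM21, which holds 99.8% of the identifiers, and promoters from the RefSeq table of GRCm38.p6. The coordinates of Csf1r and Cd14 in GENCODE vM21 differ from the deposited ones. Alternatives were another pseudocount, other filters, quantile scaling, mitochondrial genes left out, voom, 2 groups alone, a replicate block and left-out libraries.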

Additional observations from a re-analysis of the deposited data

Results flagged for a closer look

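Cx3cr1 in Sham replicate 2 stood at 2.39 FPKM, against 0.689 to 0.870 FPKM in the other Sham libraries, and the gap to the nearest of them was 0.894 of the range of the group. It is the 1 gap above the limit of 0.71 of the range among 30 groups of 5 libraries checked (10 genes in 3 groups). Chance alone passes that limit in about 1 in 20 groups. The library mixes RNA of 2 animals. Without it, the rise of Cx3cr1 in MI against Sham and in GSK against Sham was again called. The span of Cx3cr1 on chromosome 9 covers 9 other annotated genes, among them the abundant muscle gene Xirp1, but shares exon bases with Gm33858 alone, at 78 bases. Xirp1 stood at 42.5 FPKM in that library and at 35.8 to 42.9 FPKM in the other Sham libraries. The reason for the high value was not tested.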

How the results depend on the processing

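Results were recomputed under 20 or 21 alternatives per comparison. For MI against Sham, all 9 calls and directions held in each. For GSK against MI, the count of genes called, 0 with all libraries, was 3 with a pseudocount of 0.1 and 2 with voom on recovered fragments, and ran from 0 to 392 as single libraries were left out (392 without MI replicate 1, 288 without GSK replicate 5, 26 without MI replicate 4 and 7 without GSK replicate 1). The count of the 9 identity genes called ran from 0 to 1 over the same settings, Cd68 being the 1. Differences that turned positive were those of Cx3cr1 with mitochondrial genes left out (0.00717), without the 3 libraries of high mitochondrial share (0.20) and as single libraries were left out (-0.19 to 0.13: 0.04 without GSK replicate 2, 0.10 without GSK replicate 3, 0.01 without GSK replicate 4, 0.13 without MI replicate 2, 0.05 without MI replicate 3 and 0.01 without MI replicate 4), and that of Adgre1 without those 3 libraries (0.14). For GSK against Sham, the count of genes called, 2308 with all libraries, was 3477 with the 2 groups fitted alone, 1242 without the mixed Sham libraries, 1392 without the GSK libraries named with G, and 1185 to 2486 as single libraries were left out. Of 9 genes 5 to 8 were called. Itgam passed in 4 of the 21 settings: a pseudocount of 0.1, voom, the 2 groups alone and without GSK replicate 2. Ccr2 passed in 2, a pseudocount of 0.1 and the 2 groups alone. Lgals3 passed in 2, without GSK replicate 4 and without the 3 libraries of high mitochondrial share. The causes were not tested.

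No label ties same-numbered libraries of different groups to a shared animal, and their deviations from the group means correlated at -0.41 to 0.49, over 0.1 in 2 of 15 pairs, so the numbers were not taken as a pairing. With the replicate block the calls were 1459 for GSK against Sham and 5 of the 9 identity genes (without Cd14), 0 for GSK against MI, and 9 of 9 for MI against Sham.

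Low counts limit Ly6c2 most, at 4 to 58 fragments. With a filter of 0.1 FPKM it entered the fit and was called in MI against Sham (0.32, adjusted p = 0.0256) and in neither other comparison.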
